A study of Mus musculus with 34 samples.

Results

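The stress keratins Krt6a, Krt6b, Krt16 and Krt17 were followed through the life of the mouse cornea on Affymetrix gene arrays. The 4 genes were taken by name from 19938 distinct gene symbols on the array. A probe set, the group of probes that reads 1 transcript, was used if it carried exactly 1 of these symbols. Each gene had 1 such probe set: 10432780 for Krt6a, 10432774 for Krt6b, 10391061 for Krt16 and 10391066 for Krt17. All 4 passed the filter on dim probe sets and were among the 12998 genes tested. They lay above their array's median on 29, 25, 8 and 9 of the 32 whole-cornea arrays, in the order Krt6a, Krt6b, Krt16, Krt17, so the type I pair was measured close to or below the middle of the intensity range on most arrays.

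All samples came from wild-type CB6 mice with no treatment. Whole corneas were arrayed at E14.5, E15.5, E17.5, P3, P7, P14, P28 and 2 months with 3 arrays each, and at 6 months, 1 year, 18 months and 2 years with 2 arrays each, where E and P mark embryonic and postnatal days. A further 2 arrays held P28 epithelium, which dispase had freed from the cornea, and P7 stroma, laser-captured from sections of whole eyes, each with no replicate. The labels do not say that arrays of an age came from separate animals, so a p-value covers no more than the spread among arrays, which may be technical, and 2 or 3 arrays per age limit the precision. Whole cornea is bulk tissue, so fewer cells of a type and less RNA per cell cannot be told apart in any value here.

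Keratins form the intermediate filaments of epithelial cells, and each filament is built from pairs of a type I and a type II keratin. Keratin 6a and keratin 6b are type II proteins, and their usual partners are the type I keratins 16 and 17. In skin the 4 are known as stress or wound keratins, because epidermis that is injured or proliferates too fast makes them within hours, while unharmed epidermis between hair follicles makes little of them. They are made constitutively in hair follicles, nail bed and oral mucosa. In stratified epithelia the basal layer is marked by keratin 5 and its partner keratin 14, and differentiated corneal epithelium by keratin 12. In the RefSeq order of protein-coding genes on mouse assembly GRCm38.p6, Krt6b and Krt6a sit next to each other on chromosome 15 between Gm5414 and Krt5. Krt16 and Krt17 sit next to each other on chromosome 11 between Krt14 and Krt42. Krt6a and Krt6b are close paralogs, and the probe sequences were not used here, so how far each probe set also reads the other gene was not tested.

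Both type II genes were among the bright genes of the postnatal cornea, and both type I genes stayed dim. All 4 passed limma's moderated F-test over the 12 ages at an adjusted p under 0.05 with age means at least 1 log2 unit apart, which 40.6% of the genes tested did. Values are intensities as deposited, and differences are on the scale of log2(intensity + 16), which understates changes of dim genes. The largest minus the smallest age mean was 6.81 log2 units for Krt6a (adjusted p = 3.63e-14), 8.48 for Krt6b (adjusted p = 1.55e-18), 2.70 for Krt16 (adjusted p = 6.34e-06) and 1.83 for Krt17 (adjusted p = 3.41e-07).

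**Figure D1:**
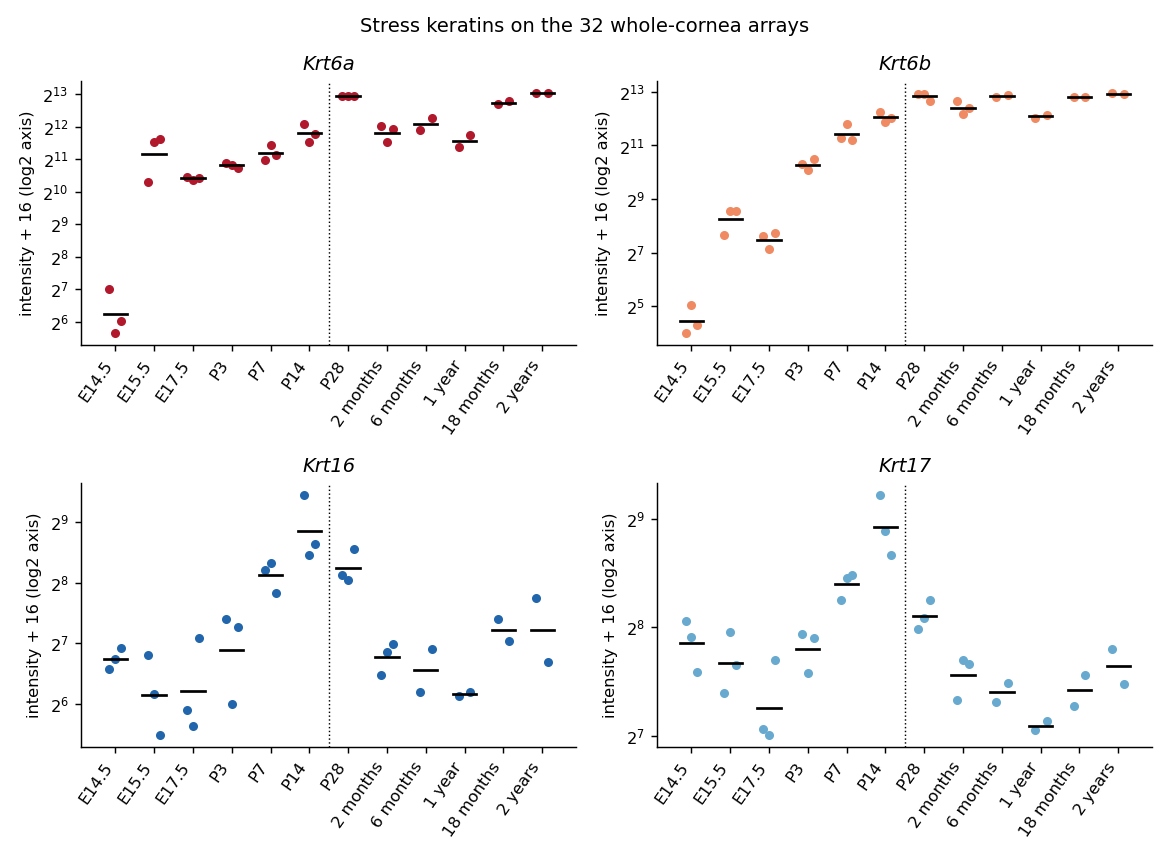
Intensity plus 16 of Krt6a, Krt6b, Krt16 and Krt17 on a log2 axis at the 12 ages, 1 point per whole-cornea array, with bars at the age means of the log2 values and a dotted line between the 2 array sets. Krt6a and Krt6b lie lowest at E14.5 and highest at 2 years, while Krt16 and Krt17 have their highest mean at P14.

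Some facts of the series touch these results. Arrays of an age correlated at 0.879 to 0.985 over the log2 values of the genes tested. A group of 8 unnamed probe sets read at least 1501 on each of 18 arrays, those up to P14, and at most 12.8 on each of the other 14, those from P28 on, so the arrays form 2 sets. The step from P14 to P28 and that from E14.5 to 2 months cannot be told apart from this change of array set. Lens genes stood at least 2 log2 units above their usual level on E14.5 replicates 2 and 3, P14 replicate 2, 2 months replicate 1 and 6 months replicate 2, muscle genes on E17.5 replicates 1 and 3, and retina genes on 6 months replicate 1.

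Within each array set the genes still differed between ages. Over E14.5 to P14 alone all 4 members passed, against 18.5% of genes, with ranges of age means of 5.58 for Krt6a, 7.59 for Krt6b, 2.70 for Krt16 and 1.67 for Krt17. Over P28 to 2 years alone 3 members passed, against 6.89% of genes: Krt6a with a range of 1.46 (limma adjusted p = 0.0008), Krt16 with 2.08 (adjusted p = 0.00636) and Krt17 with 1.01 (adjusted p = 0.00936). Krt6b had a range of 0.85 there (adjusted p = 0.0093), below the size set for a call.

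Krt6a encodes a type II keratin that oral mucosa and hair follicles make without injury. In human corneal epithelial cells, fragments of the protein act against bacteria. Its intensities were 112, 34.2 and 49.7 at E14.5, followed by 1253, 2934 and 3142 at E15.5 and by 1399, 1298 and 1363 at E17.5. After birth they were 1893, 1801 and 1697 at P3, then 2013, 2799 and 2253 at P7, and 4335, 2965 and 3504 at P14. Thus no embryonic array after E14.5 came within 10-fold of the E14.5 arrays, and the P14 arrays lay above all those of P3 and P7. At P28 the 3 arrays read 7907, 7900.0 and 7919.6, a spread of 9.95 (SD) around a mean of 7909. The later ages gave 4137, 2937 and 3881 at 2 months, 3814 and 4914 at 6 months, and 2680.2 and 3459 at 1 year. At 18 months the values were 6662 and 7042, and at 2 years 8425 and 8395. The arrays of P28, 18 months and 2 years were therefore high and those of 2 months, 6 months and 1 year lower, with no overlap between these groups of ages.

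Krt6b encodes a keratin 6 protein close in sequence to that of Krt6a. Its intensities were 0.0086, 16.8 and 4.02 at E14.5, then 187, 360.4 and 362 at E15.5, and 179, 124 and 196 at E17.5. They were 1242, 1060.1 and 1414 at P3, then 2491, 3534 and 2321 at P7, and 4878, 3742 and 4111 at P14. Each of these postnatal ages lay above all arrays of the ages before it, whereas E17.5 overlapped E15.5. The arrays read 7772, 7741 and 6386 at P28, then 6444, 4612 and 5388 at 2 months, and 7141 and 7546 at 6 months. They read 4194 and 4444 at 1 year, then 7132 and 7146 at 18 months, and 7926 and 7684 at 2 years. The 1-year arrays were the lowest of those from P28 on.

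Krt16 encodes a type I partner of keratin 6 that is strongly induced at wound edges of the skin. Its intensities were 79.1, 91.3 and 106 at E14.5, then 95.5, 55.6 and 28.9 at E15.5, and 43.8, 33.9 and 121 at E17.5. They were 152, 48.2 and 138 at P3, then 279, 306 and 211 at P7, and 684, 335 and 384 at P14. All P7 and P14 arrays stood above every earlier array. The values were 264, 248 and 359.7 at P28, then 73.6, 99.6 and 111 at 2 months, and 57.5 and 105 at 6 months. They were 53.9 and 57.7 at 1 year, then 152 and 115 at 18 months, and 199.5 and 87.1 at 2 years. From 2 months on, no array reached the P28 level.

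Krt17 encodes the type I keratin of hair follicles and other skin appendages, and in injured epidermis it appears beside keratin 16. Its intensities were 250.5, 225 and 177 at E14.5, then 152, 233 and 186 at E15.5, and 118, 113 and 193 at E17.5. They were 229, 175 and 223 at P3, then 289, 334 and 342 at P7, and 582, 458 and 392 at P14. The P14 arrays were the highest of the 32. The values were 237, 256 and 289.5 at P28, then 145, 191 and 187 at 2 months, and 143 and 164 at 6 months. They were 117 and 124 at 1 year, then 139 and 173 at 18 months, and 207 and 163 at 2 years. The arrays of 2 months to 2 years all lay below those of P28.

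The order of the ages was sharper for the type II genes. For Krt6a the ages ran, highest first, 2 years, P28, 18 months, 6 months, 2 months, P14, 1 year, P7, E15.5, P3, E17.5 and E14.5, and 6 of the 11 pairs of neighbours in that order overlapped, all of them between 6 months and P3. For Krt6b they ran 2 years, 6 months, P28, 18 months, 2 months, 1 year, P14, P7, P3, E15.5, E17.5 and E14.5, and 4 of 11 neighbouring pairs overlapped. Krt16 ran P14, P28, P7, 2 years, 18 months, P3, 2 months, E14.5, 6 months, E17.5, 1 year and E15.5, and 10 of 11 pairs overlapped, with a gap between P7 and 2 years. Krt17 ran P14, P7, P28, E14.5, P3, E15.5, 2 years, 2 months, 18 months, 6 months, E17.5 and 1 year, and again 10 of 11 overlapped, the exception being P14 and P7.

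At E15.5 both type II genes rose against E14.5, and neither type I gene was called. Krt6a averaged 2443 ± 1035 at E15.5 and 65.2 ± 41.1 at E14.5 (SD, n = 3 each), a rise of 4.93 log2 units (SE 0.28, limma adjusted p = 2.06e-12). Krt6b averaged 303 ± 100.3 at E15.5 and 6.95 ± 8.77 at E14.5 (SD, n = 3 each), a rise of 3.81 (SE 0.23, adjusted p = 1.08e-11). Thus 2 of the 4 members were called, while 10.4% of all genes were, where called means an adjusted p under 0.05 and a log2 difference of at least 1. Krt16 differed by -0.60 (SE 0.38, adjusted p = 0.23) and Krt17 by -0.19 (SE 0.18, adjusted p = 0.446), and the E15.5 and E14.5 arrays of both overlapped.

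The rise came with that of genes of both the corneal epithelium and the stroma. Of 15 tested genes on a list of corneal epithelium markers, 12 rose and none fell, with a median difference of 1.70 against 0.01 over all genes. Their summed intensity was 29367 to 45832 at E15.5 and 6127 to 11702 at E14.5. Of the other type I keratins 5 of 8 rose, among them Krt12 by 6.69, Krt13 by 5.26, Krt15 by 3.73, Krt19 by 2.81 and Krt14 by 1.70. Of the other type II keratins 4 of 9 rose: Krt5 by 3.41, Krt7 by 2.37, Krt80 by 1.72 and Krt8 by 1.20. Desmosomes tie keratin filaments to the cell border, and 12 of 14 genes of desmosomes and keratin partners rose, including the cadherins Dsg3 by 3.64 and Dsc3 by 3.63. A list of 12 stroma and keratocyte markers summed to 54496 to 62576 at E15.5 and to 3684 to 14099 at E14.5. Lens genes fell, 12 of 16, as did cell cycle genes, 20 of 22, and blood genes, 4 of 4. With the per-array median of the epithelium list subtracted, Krt6a rose by 2.70 (adjusted p = 7.09e-08) and Krt6b by 1.58 (adjusted p = 2.38e-05). Krt12 and Krt5, both on that list, also rose by more than its median. The subtraction therefore cannot tell these rises of Krt6a and Krt6b from a larger share of epithelium. On this relative scale Krt16 and Krt17 differed by -2.83 and -2.42 and were called as lower at E15.5. A gene with no change of its own also falls on this scale when the list median rises, so these 2 calls show no fall of either gene. Without the 2 lens-rich E14.5 arrays, which leaves 1, the rises were 4.16 for Krt6a and 4.26 for Krt6b, both called.

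Upstream genes known from skin were examined on the same step. Keratin 6, 16 and 17 genes respond in epidermis to epidermal growth factor (EGF) signals and to factors such as AP-1, NRF2 (Nfe2l2), STAT3, p63 and KLF proteins. Of 23 regulators 9 rose and none fell, with a list median of 0.62: Fosl2 by 2.46, Klf5 by 2.42, Klf4 by 2.34, Ets2 by 1.98, Stat3 by 1.58, Trp63 by 1.41, Nfe2l2 by 1.39, Elf3 by 1.30 and Junb by 1.28. Of 11 EGF family ligands and receptors 4 rose, the receptor genes Erbb2 by 1.69 and Egfr by 1.39 among them, and the ligand Nrg1 fell by 1.92. Of 19 genes of epithelial activation and alarm 2 rose, Sprr1a by 1.62 and Tgm1 by 1.33, and the neutrophil and keratinocyte genes S100a9 and S100a8 fell (-2.82 and -2.51). The part of any of these genes in the members' values was not tested.

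At E17.5 no member was called against E15.5, when 0.569% of genes were. Krt6a differed by -0.74 (SE 0.28, limma adjusted p = 0.193) and Krt6b by -0.78 (SE 0.23, adjusted p = 0.101). Krt17 differed by -0.41 (SE 0.18, adjusted p = 0.282) and Krt16 by 0.06 (SE 0.38, adjusted p = 0.969). Unadjusted, 3 of the 4 passed 0.05 in limma, as did 1949 of the 12998 genes. The arrays of all 4 members overlapped between these ages. Without the arrays rich in lens, muscle or retina genes, which leaves 1 at E17.5, Krt6b was called as lower, and without E15.5 replicate 1 the count was 2.

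Krt6b rose around birth and was the 1 member called. It averaged 1239 ± 177 at P3 and 166 ± 37.6 at E17.5 (SD, n = 3 each), a rise of 2.80 log2 units (SE 0.23, limma adjusted p = 1.73e-07), when 1.89% of genes were called. Krt6a differed by 0.40 (SE 0.28, adjusted p = 0.344), Krt16 by 0.68 (SE 0.38, adjusted p = 0.248) and Krt17 by 0.55 (SE 0.18, adjusted p = 0.0509). The P3 arrays of Krt6b and of Krt6a lay above their E17.5 arrays, and those of Krt16 and Krt17 overlapped. Such separation was not counted over all genes. Around Krt6b few genes of the same lists moved. Of the corneal epithelium list 1 of 15 was called, Krt12, which fell by 1.22, and the list median was 0.06. No desmosome gene, regulator or activation gene of the lists was called, and of the EGF family the ligand Ereg rose by 1.22. The epithelium list summed to 28509 to 31046 at P3 and to 23682 to 30563 at E17.5. Relative to the list median Krt6b rose by 2.87 (adjusted p = 1.49e-07).

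At P7 Krt6b and Krt16 rose against P3, 2 of 4 members, while 1.98% of genes were called. Krt6b averaged 2782 ± 657 at P7 and 1239 ± 177 at P3 (SD, n = 3 each), a rise of 1.14 (SE 0.23, limma adjusted p = 0.00354). Krt16 averaged 265 ± 49.0 at P7 and 113 ± 56.5 at P3 (SD, n = 3 each), a rise of 1.23 (SE 0.38, adjusted p = 0.0397). Krt17 differed by 0.59 (SE 0.18, adjusted p = 0.0389), under the size set for a call, and Krt6a by 0.38 (SE 0.28, adjusted p = 0.393). For all 4 genes every P7 array lay above every P3 array, but the share of all genes with such a separation was not counted. Both calls ended with an offset of 1 in place of 16 or without P7 replicate 2, and Krt16 alone without P3 replicate 2 or P7 replicate 1.

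Of 15 corneal epithelium genes 4 rose on the same step, the abundant corneal enzyme genes Aldh3a1 by 4.07 and Tkt by 1.86, with Krt12 by 2.03 and Epcam by 1.25. The list summed to 46841 to 60296 at P7 and to 28509 to 31046 at P3. Relative to the list median, Krt6b and Krt16 turned to -0.44 (adjusted p = 0.255) and -0.35 (adjusted p = 0.655), and only Krt6a was called, at -1.20. Before the subtraction Krt6a differed by 0.38, so it fell only relative to the list. Of the other lists, Ivl, which encodes the envelope protein involucrin, rose by 1.40, the EGF family ligands Epgn by 2.09 and Nrg1 by 1.48, Klf4 by 1.19 and Dsc3 by 1.23.

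At P14 no member was called against P7, and the share over all genes was 0%, although 819 of 12998 genes passed an unadjusted p of 0.05 in limma. The differences were 0.61 for Krt6a, 0.62 for Krt6b, 0.73 for Krt16 and 0.53 for Krt17, with adjusted p from 0.588 to 0.803. For each of the 4 genes all P14 arrays lay above all P7 arrays, and 3 of the 4 passed 0.05 before adjustment. The share of all genes whose arrays did not overlap was not counted, so the separation of the members has no background here.

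Over the longer span within the earlier array set, P14 against E15.5, 3 of 4 members were called, while 5.19% of all genes were. Krt6b averaged 4244 ± 579 at P14 and 303 ± 100.3 at E15.5 (SD, n = 3 each), a rise of 3.79 (SE 0.23, limma adjusted p = 6.48e-11). Krt16 averaged 468 ± 189 at P14 and 60.0 ± 33.5 at E15.5 (SD, n = 3 each), a rise of 2.70 (SE 0.38, adjusted p = 2.29e-05). Krt17 averaged 477 ± 96.5 at P14 and 190.2 ± 40.9 at E15.5 (SD, n = 3 each), a rise of 1.26 (SE 0.18, adjusted p = 3.14e-05). Krt6a differed by 0.65 (SE 0.28, adjusted p = 0.105) and its arrays overlapped. The Krt17 difference was 0.99 with array weights, and relative to the epithelium list median it was 0.26 (adjusted p = 0.5).

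Other keratins and EGF ligands rose on this span. Krt4, a mucosal type II keratin, rose by 3.67, its partner Krt13 by 1.65, Krt19 by 1.22 and Krt80 by 1.27, so that 2 of 9 other type II and 2 of 8 other type I genes were called. Of 11 EGF family genes 5 rose: the ligands Epgn by 3.74, Nrg1 by 2.66, Ereg by 2.47, Btc by 1.53 and Hbegf by 1.49. Of 19 activation genes 2 rose, Ivl by 2.20 and Il1rn, the interleukin 1 receptor antagonist, by 1.73. Of 23 regulators Elf3 rose by 1.84 and Gli2 fell by 1.28, and no desmosome gene of 14 was called. Of the corneal epithelium list 3 of 15 rose: Aldh3a1 by 3.74, Tkt by 1.57 and Mal by 1.06.

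Markers of neighbouring tissue were set beside the P14 maximum of Krt16 and Krt17. Of 8 tested genes of conjunctiva and goblet cells 4 rose at P14 against E15.5, Krt4, Krt13, Krt19 and Agr2, and the 11 measured genes summed to 11849 to 13918 at P14 and to 3973 to 6859 at E15.5. The first 3 of these are also counted among the other keratins. The goblet cell mucin gene Muc5ac read 202 to 324 at P14 and 240.1 to 297 at E15.5. The 18 measured hair follicle keratins summed to 2651 to 3550 at P14 and to 2906 to 3213 at E15.5, and none of the 6 tested was called. Of the epidermis and eyelid list 1 of 4 tested genes was called, Krtdap, which fell by 1.25, and its 10 measured genes summed to 7876 to 10889 at P14 and to 7214 to 10363 at E15.5. Of 4 tested leukocyte genes 2 rose, Itgam by 2.67 and Lyz2 by 1.29, and the 13 measured summed to 2668 to 2771 at P14 and to 2061 to 2198 at E15.5. Their part in the keratin values was not tested.

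**Figure D2:**
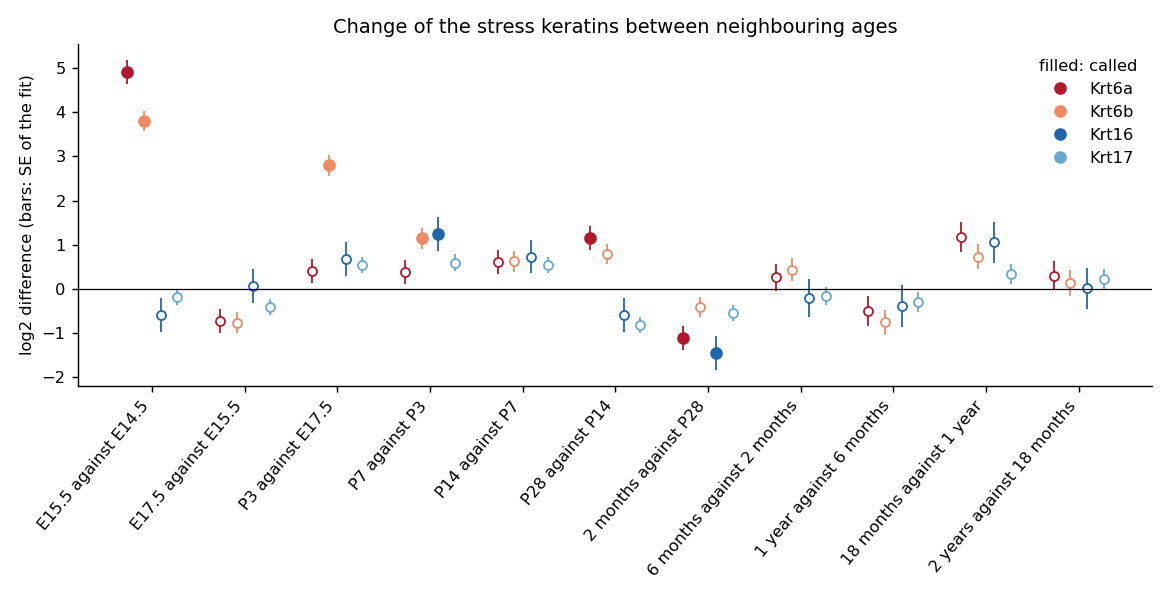
Difference of each of the 4 genes between neighbouring ages in log2 units, later minus earlier, with bars for the SE of the fit, and filled points where the gene was called. Krt6a and Krt6b rise by 4.93 and 3.81 at E15.5, Krt6b by 2.80 at P3, and Krt6a and Krt16 fall by 1.13 and 1.47 at 2 months.

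At P28 Krt6a rose against P14, across the change of array set, and the differences of Krt16 and Krt17 were negative. Krt6a averaged 7909 ± 9.95 at P28 and 3601 ± 689.8 at P14 (SD, n = 3 each), a rise of 1.15 (SE 0.28, limma adjusted p = 0.00265), and it was the 1 member called while 7.65% of genes were. Krt6b differed by 0.78 (SE 0.23, adjusted p = 0.0127), Krt17 by -0.82 (SE 0.18, adjusted p = 0.00155) and Krt16 by -0.61 (SE 0.38, adjusted p = 0.242). The P28 and P14 arrays of Krt16 overlapped and those of the other members did not. How many of all genes separated in this way was not counted. The median over all genes was 0.11 on this step, and with further quantile normalization Krt6a differed by 0.97 and was no longer called. Relative to the epithelium list median Krt6a differed by 0.63 (adjusted p = 0.0846) and was not called, while Krt17 differed by -1.34 (adjusted p = 0.000144) and was called as lower at P28.

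The neighbouring lists were split on this step. Of the corneal epithelium list 2 of 15 rose, Ehf by 1.35 and Esrp1 by 1.03, and of the stroma list 6 of 12 fell, with a median of -1.42. Among other keratins Krt78 rose by 1.74, Krt23 by 1.55 and Krt80 by 1.12, and Krt7, Krt19, Krt18 and Krt8 fell (-2.27, -2.08, -1.37 and -1.26). Of the regulators Klf4 rose by 1.56 and Nfkbiz by 1.55. Il1a rose by 2.99 and S100a9 by 2.43, while Il1rn fell by 1.23. Krtdap, a keratinocyte gene of the epidermis list, stood at 34.5 to 109 at P28 and 1024 to 2843 at P14.

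At 2 months Krt6a and Krt16 fell against P28, within the later array set, where 2.12% of genes were called. Krt6a averaged 3652 ± 632 at 2 months and 7909 ± 9.95 at P28 (SD, n = 3 each) and fell by 1.13 log2 units (SE 0.28, limma adjusted p = 0.0063). Krt16 averaged 94.9 ± 19.4 at 2 months and 291 ± 60.3 at P28 (SD, n = 3 each) and fell by 1.47 (SE 0.38, adjusted p = 0.00931). Krt17 differed by -0.55 (SE 0.18, adjusted p = 0.0338), under the size set for a call and with no overlap of arrays, and Krt6b by -0.42 (SE 0.23, adjusted p = 0.191) with overlap. Overlap was not counted over all genes on this step. Without 2 months replicate 2 Krt6a differed by -0.98 and only Krt16 was called.

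None of the 15 corneal epithelium genes was called on this step. The list's median was -0.26 against -0.08 over all genes, and it summed to 73733 to 77728 at 2 months and 86881 to 93328 at P28. Relative to the list median Krt6a fell by 1.00 (adjusted p = 0.0121) and Krt16 by 1.34 (adjusted p = 0.0329). Other keratins were called too: Krt4, Krt7, Krt15 and Krt19 fell (-2.46, -1.76, -1.44 and -1.31), and Krt18 rose by 1.28. The EGF family ligand Ereg fell by 1.66, and no activation gene, regulator or desmosome gene of the lists was called. The conjunctiva and goblet cell list, which includes Krt4 and Krt19, summed to 4689 to 5871 at 2 months and 6143 to 11582 at P28. Its median log2 value per array was 8.11 to 8.34 at 2 months and 8.15 to 8.18 at P28, so these ranges overlapped. The part of such tissue in the members' values was not tested.

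From 2 months to 2 years no member was called between neighbouring ages. The shares of all genes called were 1.25% at 6 months against 2 months, 0.208% at 1 year against 6 months, 0.854% at 18 months against 1 year and 0.446% at 2 years against 18 months. At 1 year against 6 months Krt6b differed by -0.76 (SE 0.29, limma adjusted p = 0.35), and at 18 months against 1 year Krt6a differed by 1.17 (SE 0.34, adjusted p = 0.104). On that last step Krt16 differed by 1.05 (adjusted p = 0.381), Krt6b by 0.72 (adjusted p = 0.295) and Krt17 by 0.33 (adjusted p = 0.654). For each of the 4 genes both 18-month arrays lay above both 1-year arrays. With 2 arrays against 2 such a separation can arise without any change, and its share over all genes was not counted. Krt6a was called with array weights, and without E14.5 replicate 1 or E15.5 replicate 1. On the same step Krt15 rose by 1.70 and Krt13 by 1.46, and no gene of the corneal epithelium list was called. The conjunctiva and goblet cell list, which includes Krt13, summed to 8382 to 8947 at 18 months and 3994 to 4123 at 1 year. Its median log2 value per array was 8.03 to 8.18 at 18 months and 7.73 to 7.75 at 1 year. Stroma markers went the other way, with list sums of 5182 to 6908 at 18 months and 13336 to 18337 at 1 year. The part of either tissue in the members' values was not tested.

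No member was called between old adults (the mean of the ages 1 year, 18 months and 2 years) and young adults (the mean of the ages 2 months and 6 months), where 0.677% of genes were. Krt6a differed by 0.50 (SE 0.21, limma adjusted p = 0.179), Krt16 by 0.20 (SE 0.29, adjusted p = 0.781), Krt17 by -0.10 (SE 0.14, adjusted p = 0.777) and Krt6b by -0.02 (SE 0.18, adjusted p = 0.965). The 3 older ages were themselves uneven, since 1 year lay among the lowest adult ages for all 4 genes.

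Across the whole span from embryo to adult, 2 months against E14.5, Krt6b rose by 7.96 (SE 0.23, limma adjusted p = 2.39e-18) and Krt6a by 5.60 (SE 0.28, adjusted p = 3.60e-14). These were the 2 members called, while 16.3% of genes were. Krt16 differed by 0.03 (SE 0.38, adjusted p = 0.958) and Krt17 by -0.29 (SE 0.18, adjusted p = 0.203), with overlapping arrays. Of the corneal epithelium list 13 of 15 rose on this span, with a median of 2.84. Relative to the list median per array Krt6b rose by 4.34 and Krt6a by 1.97, while Krt16 and Krt17 differed by -3.59 and -3.91 and were called as lower at 2 months. The rise of the list alone gives such values for an unchanged gene. Nor can the subtraction tell the rises of Krt6a and Krt6b from a larger share of epithelium. Stroma markers were also higher, with list sums of 17629 to 23340 at 2 months and 3684 to 14099 at E14.5.

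Whether the members changed by unequal amounts was tested within arrays, where a shift common to an array cancels. The difference between 2 members' log2 values on the same array was compared between age periods with exact two-sided permutation tests over arrays, 12 tests in all with Benjamini-Hochberg adjustment, and 10 were called. The size of such a difference also depends on the 2 probe sets, so only its change between periods is read. Arrays of a period come from several ages, which the test treats as alike, and E14.5 was in no period. The pairs share members, so the change of a member can enter several of the calls. With age means in place of arrays, 4 of the exact permutation tests were called, all in the later step, and in the earlier step 3 against 2 age means cannot go below an exact p of 0.1.

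The 2 keratin 6 genes changed unequally around birth. Krt6a minus Krt6b averaged 0.02 ± 0.42 on the 9 arrays of P3 to P14 and 2.91 ± 0.22 on the 6 arrays of E15.5 and E17.5 (SD). It fell by 2.89 log2 units with no overlap (exact permutation p = 0.0002, the smallest these numbers allow, adjusted p = 0.0004). Krt6b minus Krt17 averaged 2.88 ± 0.36 on the P3 to P14 arrays and 0.41 ± 0.33 on the E15.5 and E17.5 arrays, a rise of 2.47 with no overlap (exact permutation adjusted p = 0.0004). Smaller changes were called for Krt6b minus Krt16 at 1.61, Krt6a minus Krt16 at -1.28, Krt16 minus Krt17 at 0.86 and Krt6a minus Krt17 at -0.42 (exact permutation adjusted p = 0.00103, 0.0147, 0.0181 and 0.0293 in this order), all with overlapping arrays. The Krt6a minus Krt17 change was not called with an offset of 64, nor without E15.5 replicate 2, E15.5 replicate 3, E17.5 replicate 1, P7 replicate 3 or P14 replicate 2, where each was left out in turn (-0.54 to -0.29 over all arrays left out). The Krt16 minus Krt17 change was not called without E15.5 replicate 3.

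After P14 the type II genes changed unequally from the type I genes. On the 14 arrays of P28 to 2 years against the 9 arrays of P3 to P14, Krt6b minus Krt16 changed by 2.25, Krt6b minus Krt17 by 2.19 and Krt6a minus Krt17 by 1.89, none with overlap (exact permutation adjusted p = 4.89e-06 each). Krt6a minus Krt16 changed by 1.96 (exact permutation adjusted p = 1.47e-05) with overlap. Within the pairs the test was not passed: Krt6a minus Krt6b differed by -0.30 (exact permutation adjusted p = 0.103) and Krt16 minus Krt17 by -0.06 (exact permutation adjusted p = 0.778). This later step coincides with the change of array set and cannot be told apart from it.

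**Figure D3:**
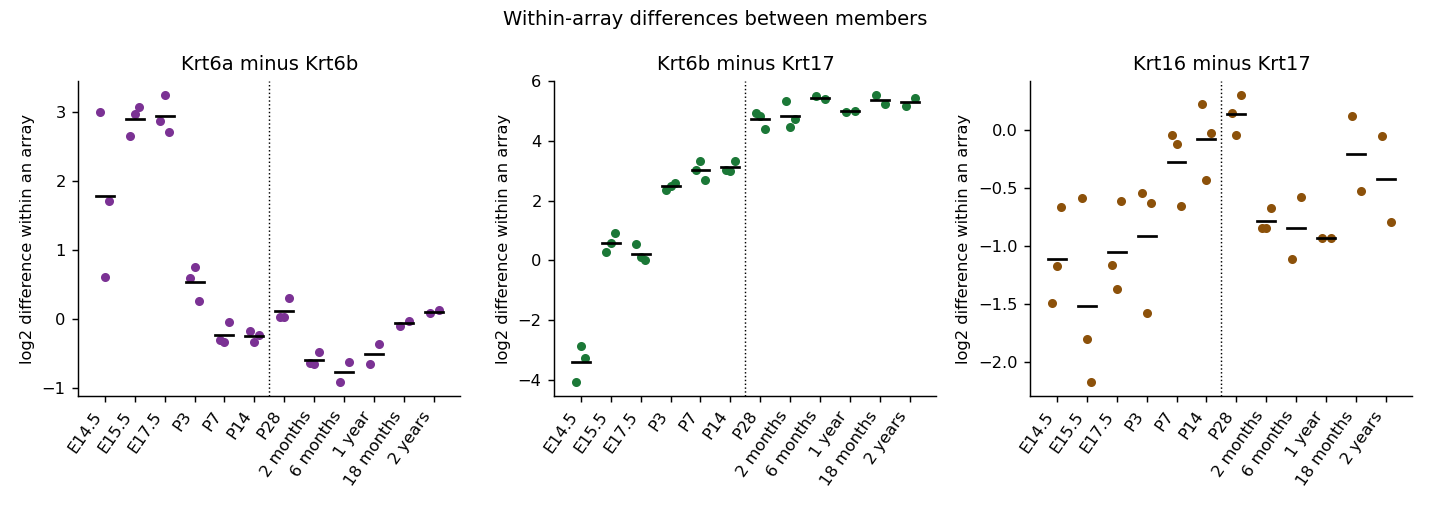
Differences between 2 members' log2 values on the same array for Krt6a minus Krt6b, Krt6b minus Krt17 and Krt16 minus Krt17 at the 12 ages, 1 point per array, with bars at age means and a dotted line between the 2 array sets. The Krt6a minus Krt6b points lie between -0.33 and 0.76 from P3 to P14 and between 2.64 and 3.23 at E15.5 and E17.5.

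Over the 12 age means Krt6a and Krt6b correlated at 0.911 and Krt16 and Krt17 at 0.884, while the 4 correlations across clusters lay between -0.022 and 0.398 (Pearson r, a description of 12 points that share arrays and array sets). The median of the corneal epithelium list correlated as highly with Krt6a (0.905) and Krt6b (0.949), but not with Krt16 (0.298) or Krt17 (-0.031). Krt6a and Krt6b were far lower at E14.5 than at any other age. How far this 1 age sets their correlations was not tested. Correlations with the basal keratin genes next to them were higher for the adjacent pair than for the other. Krt5, adjacent to Krt6a, correlated with Krt6a at 0.963 and Krt6b at 0.865, but with Krt16 at 0.192 and Krt17 at -0.046. Krt14, adjacent to Krt16, correlated with Krt16 at 0.695 and Krt17 at 0.712, and with Krt6a at 0.515 and Krt6b at 0.460. Krt12, also a type I keratin gene, went the other way, with 0.954 for Krt6a and 0.856 for Krt6b, against 0.191 for Krt16 and -0.069 for Krt17.

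Krt5 and Krt14 encode the paired keratins of basal cells, and their intensities were as follows. Krt5 averaged 1146 ± 1054 at E14.5, 9457 ± 969 at E15.5 and 12584 ± 569 at P28 (SD, n = 3 each). From 2 months to 2 years its age means stayed between 11115 and 11619. Krt14 averaged 1155 ± 738 at E14.5, 5976 ± 1288 at P14, 3785 ± 479 at P28 and 2139.5 ± 396 at 2 months (SD, n = 3 each). Its highest age mean was at P14, as for Krt16 and Krt17, but at P7 it averaged 5714 ± 446 (SD, n = 3). P14 differed from P7 by only 0.05 (limma adjusted p = 0.998), with overlapping arrays. Of the outer neighbours, Gm5414 was called over the 12 ages with a range of 1.79, and Krt42 was not, with a range of 0.70.

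**Figure D4:**
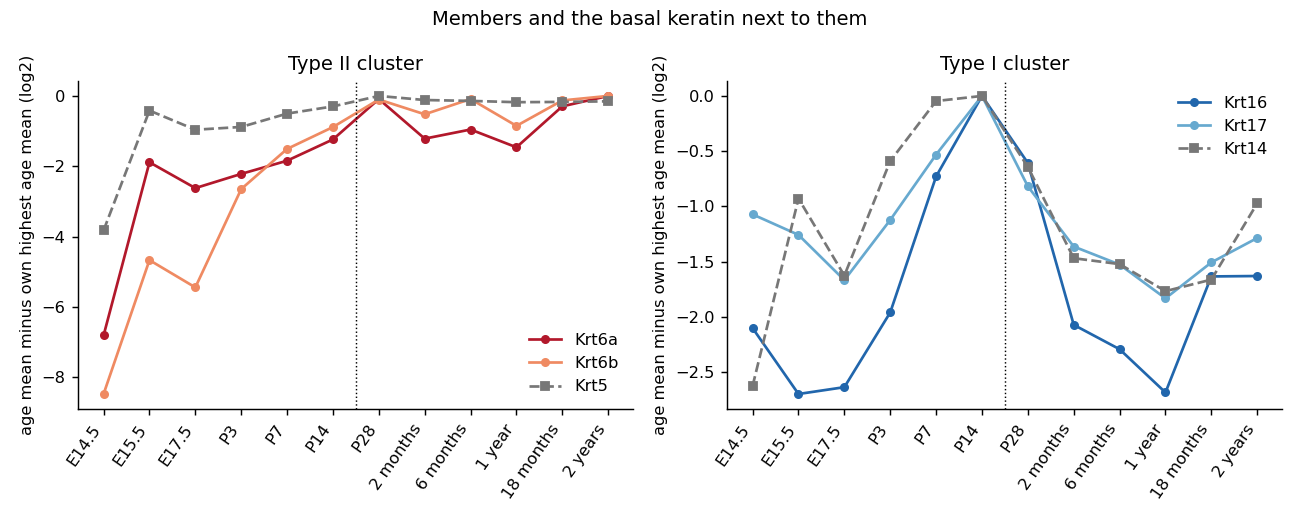
Age means of Krt6a, Krt6b and their neighbour Krt5 on the left, and of Krt16, Krt17 and their neighbour Krt14 on the right, as log2 difference from each gene's own highest age, with a dotted line between the 2 array sets. Krt5 is highest at P28 and stays within 0.18 of that level, and Krt6a lies 0.96 to 1.46 below its highest age at 2 months, 6 months and 1 year. The 3 type I genes have their highest age mean at P14, with Krt14 only 0.05 lower at P7.

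The 5 genes with the age profile most like each member's were taken by Pearson r over the 12 age means among the genes tested. For Krt6a they were the desmosomal cadherins Dsc2 (0.991) and Dsg3 (0.988), Mall (0.985), Stat6 (0.984) and Mal (0.983). For Krt6b they were Scel (0.994), which encodes the cornified envelope protein sciellin, the retinol-binding protein gene Rbp2 (0.992), Gsto1 (0.989), Fgfbp1 (0.988) and Pdzk1ip1 (0.987). Every gene named for Krt6a and Krt6b was itself lowest at E14.5. For Krt16 they were the membrane mucin gene Muc1 and the glutaredoxin gene Glrx (both 0.892), Atp13a4 (0.879), Ssna1 (0.877) and Upp1 (0.874). For Krt17 they were Sectm1b (0.943), Aldh1a7 (0.913), Glrx (0.892), Atp13a4 (0.878) and Il1rn (0.871). Glrx and Atp13a4 stood in the lists of both Krt16 and Krt17, and no gene stood in those of both Krt6a and Krt6b. Il1rn itself lay at 347 to 352 at 1 year and at 983 to 1677 at P14, the ages at which Krt17 was lowest and highest.

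On the layer arrays Krt6a and Krt6b read higher in epithelium. Krt6b read 9565 in P28 epithelium and 696 in P7 stroma, a ratio of 13.5-fold on the offset scale, and Krt6a read 5649 in epithelium and 1019 in stroma, a ratio of 5.47-fold. These 2 members were past 4-fold, as were 1.94% of the 11107 genes compared, 64 higher in epithelium and 152 higher in stroma. Krt17 went the other way, with 661 in epithelium and 1559 in stroma, 2.33-fold lower in epithelium. Krt16 read 236 in epithelium and 301 in stroma, below the array medians of 342 and 357 taken over genes, so it was not among the genes compared. There was 1 array per layer and the layers differ in age, so no test was possible and age and layer cannot be told apart.

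The stroma array held other tissues of the sectioned eye. Hair follicle keratins of the inner root sheath were high on it: Krt25 read 88.0 in epithelium and 4523 in stroma, and Krt71 149.9 in epithelium and 4861 in stroma. On the 32 whole-cornea arrays Krt25 stayed between 51.3 and 103 and Krt71 between 93.7 and 195. The 18 measured hair follicle keratins summed to 7244 in epithelium and 31568 in stroma, and 7 were past 4-fold higher in stroma. The 16 lens genes summed to 4873 in epithelium and 97246 in stroma, and the 10 muscle genes to 3484 in epithelium and 16591 in stroma. Corneal epithelium markers were present too, since Krt12 read 15153 in epithelium and 2185 in stroma, and Krt5 9817 in epithelium and 4078 in stroma. The stroma's own markers were there, with Kera at 158 in epithelium and 3433 in stroma. The Krt17 values of 661 on the epithelium array and 1559 on the stroma array were both above its highest whole-cornea value of 582, and both layer arrays have a higher floor and median than the whole-cornea arrays. The part of hair follicle or skin tissue in the stroma value was not tested.

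**Figure D5:**
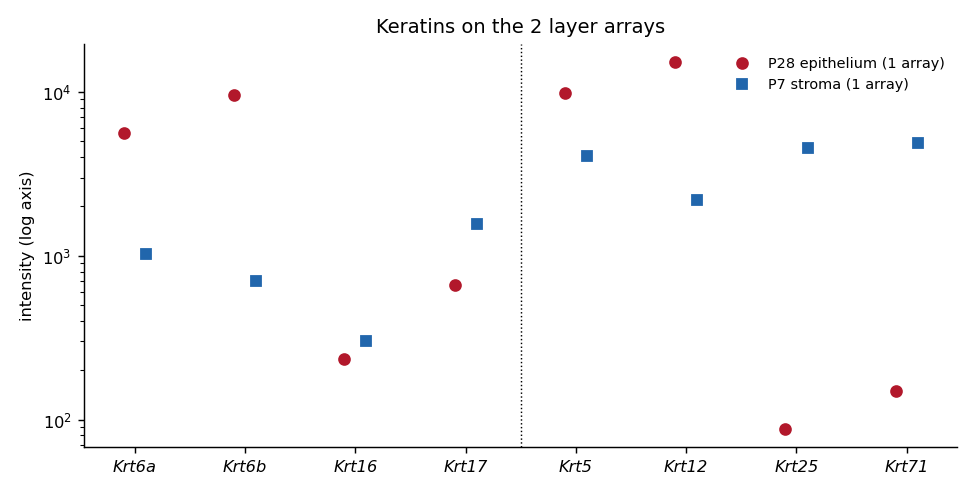
Intensities on a log axis of the 4 stress keratins, of Krt5 and Krt12, and of the hair follicle keratins Krt25 and Krt71 on the P28 epithelium and P7 stroma arrays, 1 array each, with no error. Krt6a, Krt6b, Krt5 and Krt12 are higher in epithelium, and Krt17, Krt25 and Krt71 higher in stroma.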

How the data were processed

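RNA of whole corneas, of P28 epithelium and of P7 stroma was amplified and hybridised to Affymetrix arrays, 1 colour, 34 arrays in all. The values were used as deposited: 1 linear intensity per probe set and array, for which the submitters' processing notes name the PLIER method and version 1.1 of Affymetrix Expression Console. No genome build is given in the sources used here. Of 35557 probe sets, 21789 had 1 gene symbol in the platform annotation, 1621 several and 12147 none. Only probe sets with 1 symbol were analysed. Array medians over all probe sets were 188.2 to 240.6 on whole-cornea arrays. On the 2 layer arrays they were 318 and 321, and the lowest value was 41.8 and 42.6 there against 0.00108 or less on whole-cornea arrays, so the layer arrays entered no fit.

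The filter, and the counts of arrays on which a member lay above the median, used array medians over probe sets with 1 symbol. A probe set was kept where 2 or more of the 32 whole-cornea arrays had it above their median (14329 probe sets). The brightest per gene was used (12998 genes), as log2(intensity + 16). A model with 1 mean per age was fitted with limma 3.58.1 in R 4.3.3 (lmFit, eBayes, 20 residual and 4.1 prior degrees of freedom). Two-sided p-values were adjusted over all 12998 genes by Benjamini and Hochberg's method, and calls needed an adjusted p under 0.05 and a log2 difference of 1 or more in either direction. The code was tested on simulated data. Figures were drawn with Python 3.11.15 and matplotlib 3.10.9.

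The 4 members and the 18 gene lists were chosen with earlier results of these data known. Named genes were the members in every comparison, called list genes where members were called, the 5 genes most correlated with each member, and the neighbours in the keratin clusters. Counts over a list describe it and are no test of it. Alternatives were the offset, the filter, median and quantile normalization, array weights, trended and robust variance, the replicate number as a block, each array left out, the arrays rich in lens, muscle or retina genes left out, 2 arrays of 2 months with related identifiers averaged, and, chosen after seeing the data, the members relative to the corneal epithelium list median.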

Additional observations from a re-analysis of the deposited data

How the results depend on the processing

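Of 1844 recomputed values of 47 results, 1798 were rated the same. For a member or a member pair this meant the same direction and side of the threshold. Counts and layer differences were allowed a small shift, so that 8 called member pairs in place of 10 were still rated the same. Many of these values left out an array outside the comparison, so the tally says little about any 1 result. P7 against P3 was the least stable comparison: in place of 2 members, 0 were called with an offset of 1 (Krt6b 1.15, Krt16 1.37), 1 with an offset of 64 (Krt16 0.94), 1 with quantile normalization (Krt6b 0.98) and 1 relative to the corneal epithelium list median, where Krt6b turned to -0.44 and Krt16 to -0.35. At P28 against P14, 0 in place of 1 were called with quantile normalization (Krt6a 0.97), and relative to the epithelium list median the 1 called was Krt17 (-1.34) in place of Krt6a (0.63). At 18 months against 1 year, 1 in place of 0 was called with array weights, and at E17.5 against E15.5, 1 in place of 0 without the arrays rich in other tissues. Relative to the epithelium list median, 4 in place of 2 were called at E15.5 and at 2 months, each against E14.5. With age means in place of arrays, 4 in place of 10 member pairs were called. The causes were not tested, except that 5 age means in the earlier step are too few to pass.

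Leaving out each array in turn gave 0 to 2 called members at E17.5 against E15.5 and at P7 against P3, 1 to 2 at 2 months against P28 and 0 to 1 at 18 months against 1 year, and 8 to 10 called member pairs. Without an array of an age with 2, the lone array is assumed to vary like the others. Without the arrays rich in other tissues 6 months had none, so its comparisons and that of old against young adults gave no value. Each member has 1 probe set, so the mean over a gene's probe sets left the members' differences as they were and changed no call, and no other probe set of a member was there to try on the layer arrays. Krt16 and Krt17 lay above the array median on 8 and 9 of 32 arrays, and no detection calls were used.

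Replicate numbers do not pair the arrays: deviations of same-numbered arrays correlated at a median of -0.012, and 11 of 32 arrays correlated best with their own number. With the replicate block 2 members were called at E15.5 and 10 member pairs changed unequally, and no call of a member differed.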
